A study of Mus musculus with 2 samples.

Results

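This account follows 10 genes that write, erase or maintain repressive chromatin marks, out of the 23282 gene rows that were counted in the study. They were taken by symbol. *Dnmt1*, *Uhrf1*, *Dnmt3a* and *Dnmt3b* act in DNA methylation, *Tet2* and *Tet3* in its removal, and *Ezh1*, *Ezh2*, *Suz12* and *Eed* form the core of Polycomb repressive complex 2 (PRC2). All 10 symbols were found, each on 1 row. Both libraries came from naïve CD4 T cells of spleens of young adult female mice carrying floxed *Fak* alleles (*Fak* fl/fl), so the control cells carry these alleles as well. Cells of the control group were transduced with an empty retrovirus, and cells of the RV-Cre group with a retrovirus carrying Cre recombinase, which removes the floxed part of *Fak* (listed as *Ptk2*). For the control, the title (floxed cells) and the genotype label (WT) differ, and the title was followed. Cells of both groups were stimulated with 10 μg/ml of plate-bound anti-CD3ε and 5 μg/ml of soluble anti-CD28 and kept for 3 days with IL-6 (50 ng/ml), TGFβ1 (1 ng/ml), TNFα (1 ng/ml), IL-1β (2 ng/ml), anti-IFNγ (5 μg/ml) and anti-IL-4 (5 μg/ml). GFP+ cells, those that took up virus, were sorted before RNA was made.

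DNA methylation is copied after each round of DNA replication. UHRF1 binds the hemimethylated CpG sites of the new double strand and brings in DNMT1, the maintenance enzyme, while DNMT3A and DNMT3B place methyl groups on unmethylated DNA. TET enzymes oxidize 5-methylcytosine and so start its removal. PRC2 methylates lysine 27 of histone H3 through either EZH2, the form typical of dividing cells, or EZH1, which is found in resting cells as well, and needs SUZ12 and EED for its activity. In CD4 T cells the DNA methyltransferases and PRC2 are known to help keep cytokine and lineage factor genes of other T helper subsets silent, and loss of *Dnmt1*, *Dnmt3a*, *Tet2* or *Ezh2* is known to disturb helper cell identity.

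Each group had 1 library. Differences therefore have no replicate to be checked against, and p-values are not given. The control library held 13799264 reads and the RV-Cre library 12305010, and pairs of values below give the control first. Reads on *Rn45s* (ribosomal RNA) made up 8.5% of the control library and 14.6% of the RV-Cre library, and the cause of this difference was not tested. Counts were TMM-scaled. The log2 ratio compares log2(normalized count + 1) between RV-Cre and control, whereas a ratio is given without the added 1. Each ratio has an exact 95% interval (Clopper-Pearson, from how the gene's reads divide between the libraries), which covers counting error alone and says nothing of variation between cultures. A gene is called higher or lower below if it differed by at least 2-fold and its log2 value reached 4, that is 15 normalized reads, in either library. Scaling to *Gapdh* instead of TMM raises log2 ratios by 0.42, less for genes of few reads, so that values between -0.42 and 0 cross to the other side of 0. *Ptk2*, the targeted gene, had 110 and 31 reads, and its ratio was 0.318 (0.206 to 0.477 at 95%). The T cell markers *Cd3d*, *Cd3e*, *Cd3g*, *Cd4* and *Cd28* were present, with 876 and 1422 CPM (reads scaled to the library total) in sum. In bulk RNA, fewer cells that express a gene and less of its RNA per cell cannot be told apart.

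The 10 genes did not move as a block. All of them passed the expression minimum, with 182 to 4494 reads per library. The maintenance pair *Dnmt1* and *Uhrf1* and the PRC2 subunit *Eed* were called lower, by 2.30-, 3.11- and 2.22-fold, *Dnmt3b*, *Ezh2*, *Suz12* and *Dnmt3a* had lower values inside 2-fold, *Tet2* and *Tet3* lay closest to the control with TMM scaling, and *Ezh1* had a higher value inside 2-fold. With scaling to *Gapdh* only *Uhrf1* was called lower, *Ezh1* was called higher and *Dnmt3a* turned to the other side of 0. Counted over the 10 genes with TMM scaling, 3 were called lower and 0 called higher, beside 12.3% and 14.2% of the 12112 genes past the minimum. The 10 genes are abundant, with a mean log2 value between 7.66 and 11.79, and of the 6326 genes in that range 8.28% were called lower and 3.81% called higher. Their median log2 ratio was -0.51, while that of the 6326 genes was -0.07. The counting interval lay wholly below 1 for 7 of the 10 genes and wholly above 1 for 2, beside 38.1% and 36.7% of all genes past the minimum and 44.2% and 35.1% of those in the same range of abundance, so an interval that leaves out 1 is common in these libraries.

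**Figure D1:**
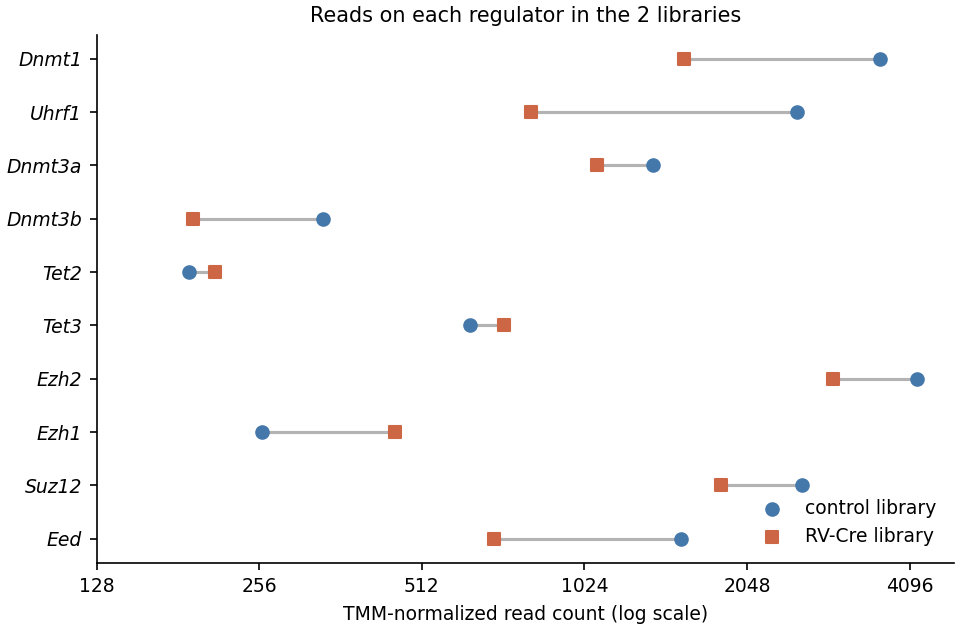
TMM-normalized read counts (log scale) of the 10 regulators in the control library (circles) and the RV-Cre library (squares), 1 library each. The widest gaps are those of *Uhrf1*, *Dnmt1* and *Eed*, all with the RV-Cre library on the left, and *Ezh1* has the widest gap in the other direction.

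Sequence before a start site is shown for *Uhrf1* and *Ezh1*, which mark the ends of the range, and around the matches of *Dnmt1*, *Ezh2* and *Suz12*. Factors of the E2F family switch on genes for DNA replication at the entry into S phase and bind sites such as TTTCGCGC, TTTGGCGC or TTTCCCGC. Windows of 300 bases, from 250 before to 50 after each RefSeq start site (GRCm38.p6, the build the submitters' notes name as mm10), were searched on both strands for these octamers and for CCAAT, the letters bound by NF-Y. All 10 genes had a window, 15 in all, since *Dnmt1* and *Dnmt3a* have 3 start sites in the table and *Uhrf1* has 2. At least 1 of the octamers was found for 4 genes, *Dnmt1*, *Uhrf1*, *Ezh2* and *Suz12*, that is in 26.7% of the 15 windows. Of all 32851 windows, 1.85% held one. For the 27 genes with windows of a list of S phase genes, the share was 31.0% of 29 windows. The looser form TTTNNCGC, which takes in all 3 octamers, was found in 33.3% of the windows of the 10 genes, again of 4 genes, and in 5.17% of all windows. All of these forms hold a CpG. Every window of the 10 genes except the most upstream of *Dnmt1* had more CpG than the median over all windows. Shares among windows of like CpG count were not computed, so the part of CpG content in these shares was not tested. CCAAT was found in 53.3% of the windows of the 10 genes and in 37.4% of all windows. A match describes the letters and is not a site shown to be used, and a gene without one may be bound outside its window.
The bases before the second start site of *Uhrf1* (chr17:56304063-56304312, plus strand) and before that of *Ezh1* (chr11:101226464-101226713, minus strand) are given from 5′ to 3′. Capitals mark an E2F octamer or CCAAT on either strand. In *Uhrf1* the octamer begins 185 bases before the start site, with CCAAT at 150 and 107 bases, and *Ezh1* has no capitals.
Uhrf1: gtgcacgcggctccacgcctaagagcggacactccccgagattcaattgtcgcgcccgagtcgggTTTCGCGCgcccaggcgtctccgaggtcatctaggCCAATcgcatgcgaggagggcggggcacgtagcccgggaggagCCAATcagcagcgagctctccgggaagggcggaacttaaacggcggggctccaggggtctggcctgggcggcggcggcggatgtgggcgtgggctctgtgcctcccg
Ezh1: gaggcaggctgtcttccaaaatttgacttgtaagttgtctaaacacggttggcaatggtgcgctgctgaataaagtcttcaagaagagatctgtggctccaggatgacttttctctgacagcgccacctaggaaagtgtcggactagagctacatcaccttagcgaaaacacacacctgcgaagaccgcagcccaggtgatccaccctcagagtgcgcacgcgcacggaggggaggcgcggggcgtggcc

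The matches of the other genes are shown with their neighbouring bases, 30 in all, with only the octamer in capitals. *Dnmt1* has both of its matches in the window of its most downstream start site, one reading on the other strand 219 bases before it (chr9:20952824-20952853) and one 34 bases into the transcript (chr9:20952574-20952603), both printed on the minus strand, on which the gene lies. The *Ezh2* match begins at the base numbered 4 of the transcript (chr6:47595009-47595038, minus strand) and that of *Suz12* 219 bases before the start site (chr11:79992876-79992905, plus strand).
Dnmt1, other strand: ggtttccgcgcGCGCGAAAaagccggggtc
Dnmt1, gene strand: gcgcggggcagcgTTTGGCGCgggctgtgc
Ezh2: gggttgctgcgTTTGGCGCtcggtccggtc
Suz12: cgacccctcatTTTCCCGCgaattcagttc
*Eed*, which was called lower, has none of the octamers in its window, and *Ezh2* and *Suz12*, which have one, had lower values inside 2-fold. The octamers do not sort the 10 genes by the size of their difference. By direction, every gene with an octamer had a lower value with TMM scaling, *Uhrf1* and *Dnmt1* being the lowest of the 10. Those without one were *Ezh1*, *Tet2* and *Tet3*, with higher values, and *Eed*, *Dnmt3a* and *Dnmt3b*, with lower values. The part of the octamers in these differences was not tested. CpG, the dinucleotide that the DNMT enzymes methylate, ranged over the 15 windows from 2 (the most upstream start site of *Dnmt1*) to 57 (*Tet2*), and the median over all windows was 7.

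Of the 10 genes, *Uhrf1* and *Dnmt1*, which maintain DNA methylation, had the lowest ratios with TMM scaling. The interval of *Dnmt1* overlapped that of *Eed*, 0.411 to 0.494. *Uhrf1* (chr17:56303337-56323486), the reader of hemimethylated DNA, had 2688 control and 767 RV-Cre reads, or 195 and 62.3 CPM. Its ratio was 0.322 (95% interval 0.297 to 0.349) and its log2 ratio -1.63, and 5.12% of the 12112 genes lay at or below it. *Dnmt1* (chr9:20907206-20959888), the maintenance methyltransferase, had 3826 and 1476 reads, or 277 and 120 CPM. Its ratio was 0.435 (95% interval 0.410 to 0.462) and its log2 ratio -1.20. For both genes, and for *Eed*, the whole counting interval lay beyond 2-fold with TMM scaling, beside 6.98% of all genes. Scaling to *Gapdh* moved *Dnmt1* to -0.78, inside 2-fold, and left *Uhrf1* at -1.22.

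The other genes of the maintenance pathway were taken from a list of 21 methylation and demethylation genes beyond the 10, of which 16 passed the minimum. Of these 16 genes, 3 were called lower and 5 called higher, and their median log2 ratio was -0.17. *Hells*, a chromatin remodeller needed for DNA methylation, had 4561 and 1097 reads and a log2 ratio of -1.88. *Cdca7*, the partner that activates HELLS, had 1802 and 425 reads and a log2 ratio of -1.91. Both lay below *Uhrf1*, and the paralog *Uhrf2*, with 584 and 320 reads, stayed inside 2-fold at -0.69. *Cdca7l* and *Usp7*, also on the list, stayed inside 2-fold at -0.40 and -0.32. *Gadd45a*, a stress gene that has been linked to demethylation, had 28 and 10 reads. On the higher side, *Gadd45g* of the same family had 1064 and 2485 reads and a log2 ratio of 1.40, while *Zfp57*, which protects methylation at imprinted loci, had 5 and 24 reads and *Apobec1*, a cytidine deaminase, 0 and 16 reads. *Cxxc5* and *Ogt* were the other genes called higher, with log2 ratios of 1.52 and 1.01. *Ogt* lay at the threshold and lost its call with scaling by library totals or DESeq2. The list had 4 genes called higher under these, with quantile normalization and with a pseudocount of 10, under which 2 were called lower. With scaling to *Gapdh* the median of this list turned to 0.24 and 2 of its genes were called lower.

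The maintenance genes lay within the range of S phase genes. A list of 39 genes used to score S phase, from which *Uhrf1*, *Hells* and *Cdca7* were left out, had 27 genes called lower (20 with scaling to *Gapdh*), 0 called higher and a median of -1.46 on the log2 scale. The lowest were *Rrm2* (-2.40), *Fen1* (-2.36), which overlaps another protein-coding gene, and *E2f8* (-2.35). All 39 were below 0 with TMM scaling, and 38 with scaling to *Gapdh*. Of the 10 regulators only *Uhrf1* lay below that median. Of the 39 genes, 13 had a lower log2 ratio than *Uhrf1*, 25 than *Dnmt1*, 26 than *Eed*, and 35 than either *Ezh2* or *Suz12*. The list of naïve and memory T cell genes moved the other way, with 5 of 9 genes called higher and a median of 1.18, among them *Klf2* (2.44) and *S1pr1* (2.01). The part of either shift in the values of the 10 genes was not tested.

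The de novo enzymes differed less. *Dnmt3a* (chr12:3801559-3914443) had 1455 and 1015 reads, or 105 and 82.5 CPM, with a ratio of 0.787 (95% interval 0.726 to 0.853). Its log2 ratio was -0.34 with TMM scaling and 0.07 with scaling to *Gapdh*, so its direction depends on the scaling. *Dnmt3b* (chr2:153649411-153687730), the other de novo enzyme, had 357 and 182 reads. Its ratio was 0.575 (95% interval 0.479 to 0.690), or -0.79 as a log2 ratio. Its interval reached beyond 2-fold, and counting error leaves it on either side of that line.

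With TMM scaling the TET genes were nearest to the control, and with scaling to *Gapdh* their log2 ratios were 0.58 (*Tet2*) and 0.63 (*Tet3*), farther from 0 than those of *Dnmt3a*, *Dnmt3b*, *Ezh2* and *Suz12*. *Tet2* (chr3:133463677-133545136), the TET enzyme often mutated in T cell lymphoma, had 202 and 200 reads, or 14.6 and 16.3 CPM. Its ratio was 1.12 and the interval, 0.914 to 1.37, held 1 with TMM scaling, so no difference was detectable at this depth under that scaling. *Tet3* (chr6:83362373-83457208) had 669 and 685 reads and a ratio of 1.16 (95% interval 1.04 to 1.29). The third family member, *Tet1*, had 8 and 14 reads and did not pass the minimum. *Tdg*, the glycosylase that removes oxidized 5-methylcytosine, had 27 and 20 reads, with an interval of the ratio from 0.444 to 1.55.

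**Figure D2:**
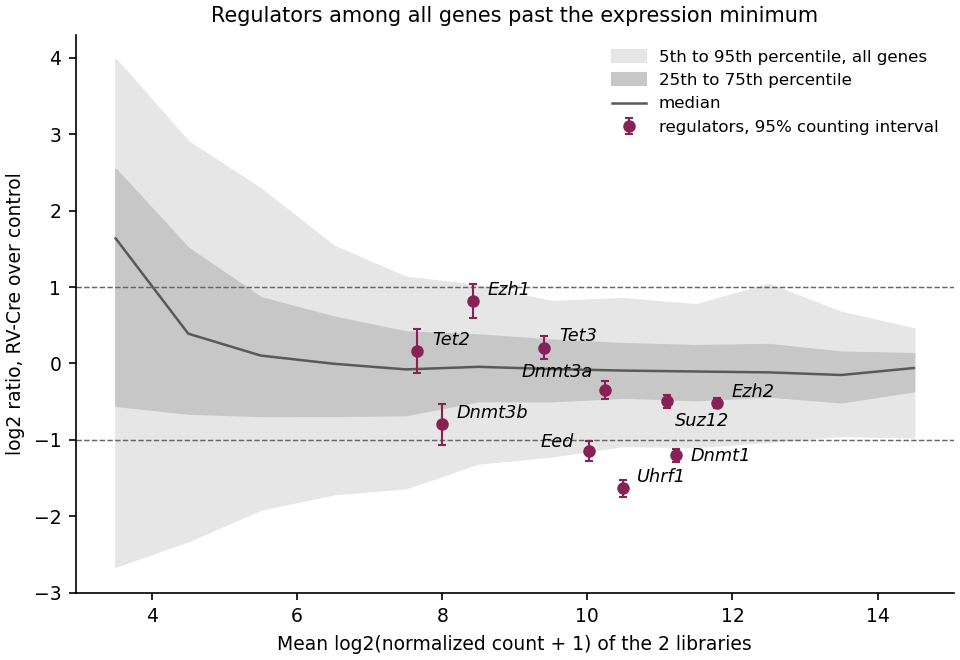
log2 ratio (RV-Cre over control, TMM scaling) of the 10 regulators against their mean log2(normalized count + 1), with 95% counting intervals, over the percentiles of all genes past the expression minimum in bins of 1 log2 unit. *Uhrf1*, *Dnmt1* and *Eed* lie below the line of 2-fold lower, and the shaded range widens and shifts upward at low counts.

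The 4 core genes of PRC2 differed from each other. *Ezh2* (chr6:47530274-47595270), the catalytic subunit of dividing cells, had 4494 and 2782 reads, or 326 and 226 CPM, with a ratio of 0.699 (95% interval 0.666 to 0.733). *Suz12* (chr11:79993106-80034123), the scaffold of the complex, had 2752 and 1728 reads and a ratio of 0.709 (95% interval 0.667 to 0.753). The log2 ratios of these genes were -0.52 and -0.50, their intervals overlapped, and both lay close to 0 with scaling to *Gapdh*, at -0.10 and -0.08. *Eed* (chr7:89954654-89980976), which binds the methylated histone tail and stimulates the enzyme, had 1641 and 656 reads, or 119 and 53.3 CPM. Its ratio was 0.451 (95% interval 0.411 to 0.494), below the intervals of both *Ezh2* and *Suz12*, and its log2 ratio was -1.15 with TMM scaling and -0.73 with scaling to *Gapdh*. *Ezh1* (chr11:101191115-101226463), the second catalytic subunit, had 275 and 429 reads, or 19.9 and 34.9 CPM. Its ratio was 1.76 (95% interval 1.51 to 2.06), so that 2-fold lay inside the interval, and 82.5% of the 12112 genes lay at or below its log2 ratio of 0.81.

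Shares within a pair of genes need no scaling between the libraries, and a length effect that is the same in both libraries cancels out of their odds ratio. *Ezh1* took 5.77% of the reads on *Ezh1* and *Ezh2* in the control (95% interval 5.12 to 6.47) and 13.4% after RV-Cre (95% interval 12.2 to 14.6), an odds ratio of 2.52 (95% interval 2.14 to 2.96). *Dnmt3a* took 27.6% of the reads on *Dnmt3a* and *Dnmt1* in the control and 40.7% after RV-Cre, an odds ratio of 1.81 (95% interval 1.63 to 2.00). The share of *Dnmt3b* in the reads on the de novo enzymes was 19.7% in the control and 15.2% after RV-Cre, an odds ratio of 0.731 (95% interval 0.597 to 0.892). For *Tet3* against *Tet2* the shares were 76.8% and 77.4%, and the interval of the odds ratio, 0.822 to 1.30, held 1. The shares of the catalytic subunits, of maintenance against de novo enzymes and within the de novo enzymes thus differed between the libraries. These differences exceeded the counting error of reads taken as independent. The difference in the share within the TET genes did not.

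**Figure D3:**
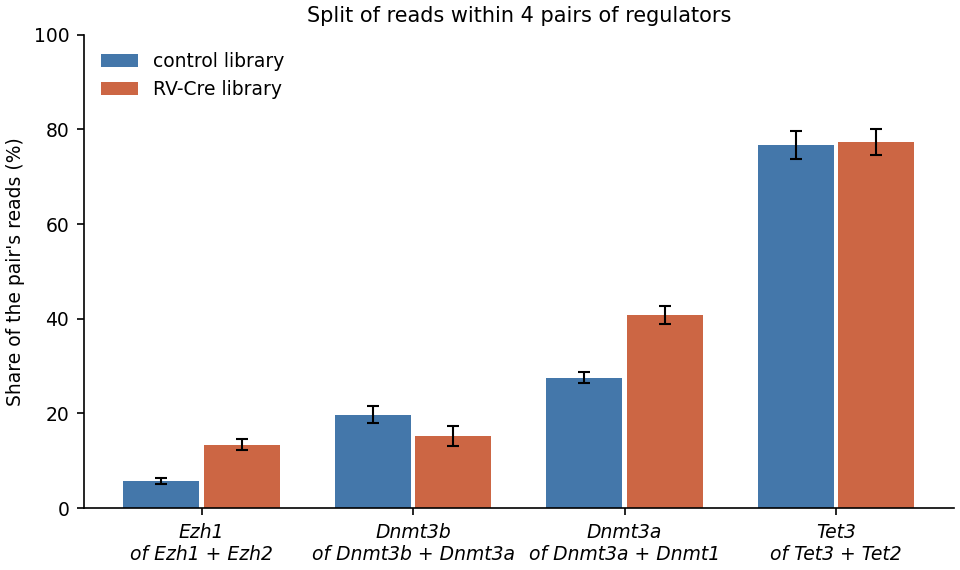
Share of reads (%) of the first gene of each pair in the control and RV-Cre libraries, 1 library each, with exact 95% binomial intervals that cover counting error only. The intervals are apart for *Ezh1* (5.77% and 13.4%), *Dnmt3a* (27.6% and 40.7%) and, with the lower share after RV-Cre, *Dnmt3b* (19.7% and 15.2%), and overlap for *Tet3* (76.8% and 77.4%).

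Of 10 further PRC2 genes on the list, 8 were matched by symbol and all 8 passed the minimum. *Rbbp7*, a histone chaperone of PRC2 and of other complexes, was called lower with 4918 and 1948 reads (log2 ratio -1.16), whereas its paralog *Rbbp4*, with 6902 and 4266 reads, had a log2 ratio of -0.52, the same as *Ezh2* to 2 decimals. The accessory subunits that recruit the complex differed in direction. *Phf19* had 119 and 41 reads (log2 ratio -1.34), *Mtf2* had 1554 and 1096 reads (-0.33), and *Phf1*, the remaining Polycomb-like subunit, had 53 and 119 reads (1.32). *Aebp2* had 3904 and 2159 reads (-0.68) and *Jarid2*, with which it forms the other class of the complex, 830 and 981 reads (0.42). The median of the 8 genes was -0.42 with TMM scaling and -0.01 with scaling to *Gapdh*, under which 0 of them, neither *Rbbp7* nor *Phf19*, were called lower. *Rbbp7* and *Phf1* each overlap a protein-coding gene in GENCODE M21, and no source used here says that reads were counted by strand, so some of their reads may belong to the neighbour.

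PRC1, the complex that reads the PRC2 mark and ubiquitinates histone H2A, gave a split picture. All 24 genes of its list passed the minimum, 5 were called lower and 2 called higher, and the median was -0.18. With scaling to *Gapdh* 3 were called lower and 3 higher, and the median was 0.24. Among the chromobox readers of the mark, *Cbx2* had 281 and 97 reads (log2 ratio -1.35) and *Cbx8* 60 and 19 reads (-1.44), both called lower, while *Cbx7* had 604 and 796 reads (0.57) and stayed inside 2-fold. The catalytic subunit *Rnf2* had 828 and 765 reads, and the interval of its ratio, 0.944 to 1.15, held 1. Among the subunits that set the type of PRC1, *Pcgf1* had 22 and 3 reads, *Pcgf3* 81 and 25 reads and *Bmi1* 638 and 522 reads. *Auts2*, a subunit of one type of PRC1, had 15 and 58 reads, and it overlaps 26 other annotated genes, none of them protein-coding.

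**Figure D4:**
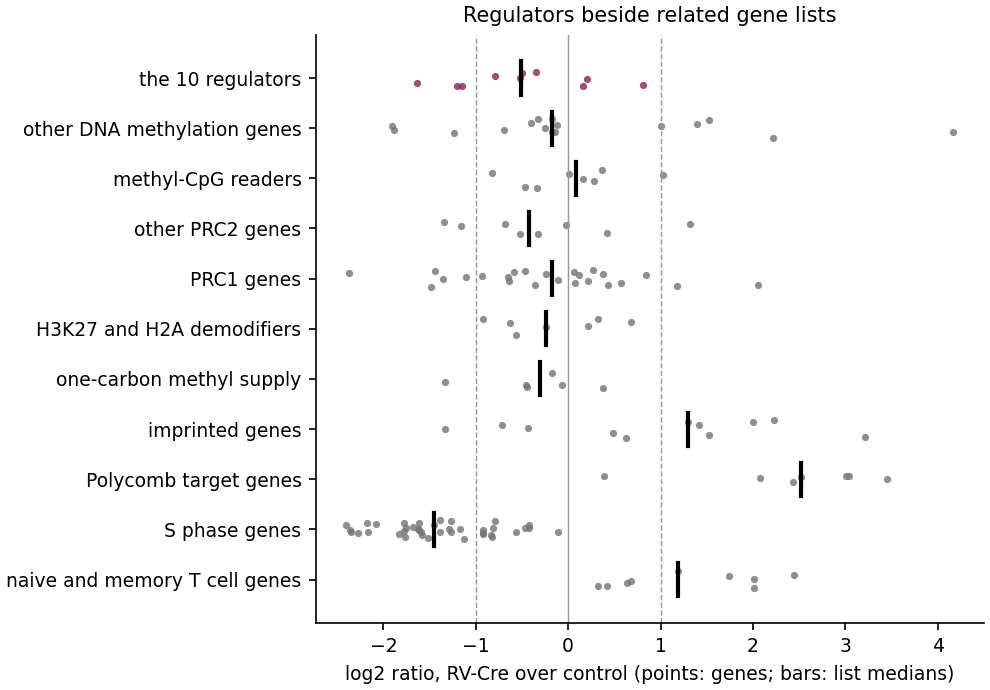
log2 ratios (RV-Cre over control, TMM scaling) of the 10 regulators and of the genes past the minimum on 10 related lists. Points are genes, black bars are medians, and dashed lines mark 2-fold. The regulators spread from -1.63 to 0.81, the S phase genes lie to the left of 0 (38 of 39 with scaling to *Gapdh*), and the rightmost point among the methylation genes is *Apobec1*, which had 0 reads in the control library.

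The enzymes that undo these marks, their partners and the readers of methylated DNA stayed mostly inside 2-fold. Of 7 genes for H3K27 demethylation and H2A deubiquitination, 0 were called either way with TMM scaling, and the median was -0.23 (0.18 with scaling to *Gapdh*). They take in *Asxl1*, *Asxl2*, *Foxk1* and *Foxk2*, which are partners of the deubiquitinase BAP1 and not enzymes themselves. The H3K27 demethylases lay on either side of 0, with *Kdm6b* at 742 and 445 reads (log2 ratio -0.56) and *Kdm6a* at 407 and 577 reads (0.68). Of 8 methyl-CpG readers, *Zbtb38* was called higher (though not with loess normalization or a pseudocount of 10), with 62 and 113 reads, and 0 were called lower. *Mbd2*, a reader that recruits the NuRD repressor, had 889 and 446 reads and a log2 ratio of -0.82. Of 6 genes of methyl group supply past the minimum, *Ahcy*, which clears the inhibitor left by every methyl transfer, was called lower with 1157 and 405 reads (log2 ratio -1.34), a call that was lost with scaling to *Gapdh*, under which the median of the 6 genes turned from -0.31 to 0.11. *Mat2a*, which makes the methyl donor, had 10092 and 7946 reads (-0.17).

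Genes that these marks are known to silence were read from 3 lists. Of 41 classical Polycomb targets, the *Hox* genes with *Cdkn2a* and *Cdkn2b*, 20 had 0 reads in both libraries and 7 passed the minimum. Of these 7, 6 were called higher, among them *Hoxa3* with 1 and 19 reads, *Hoxd11* with 4 and 36 reads and *Hoxd4* with 3 and 28 reads. The remaining gene, *Hoxb4*, had 47 and 55 reads and stayed inside 2-fold. Below the minimum, some genes had fewer reads in the RV-Cre library, such as *Cdkn2b* (9 and 3) and *Hoxb5* (6 and 3). The whole list summed to 122 and 324 reads, and 18 of its genes had a read in the control and 15 in the RV-Cre library. *Hoxa3* and *Hoxd4* overlap other protein-coding genes. A gene of so few reads could hardly pass the minimum without being higher in 1 library, and of 1705 genes past the minimum whose mean log2 value was between 3 and 5, 46.4% were called higher and 19.4% called lower. Markers of cells that the culture should lack moved as well. The 3 B cell markers summed to 24 and 97 reads and the 2 erythroid markers to 33 and 181 reads, with every one of them higher in the RV-Cre library. The 3 myeloid markers summed to 45 and 120 reads, but *Csf1r* alone was higher (16 and 110 reads), while *Lyz2* (22 and 7) and *Itgam* (7 and 3) were lower. The 2 NK cell markers summed to 12 and 8 reads, with *Klrb1c* at 0 in the RV-Cre library and *Ncr1* at 0 in the control. Reads on *Cd8a* (322 and 580) and *Cd8b1* (122 and 274) summed to 444 and 854, which is not a low count. Both were called higher with TMM scaling, with ratios of 2.03 and 2.53, while *Cd4* had a ratio of 1.02. The part of these marker differences in the *Hox* result was not tested.

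Of 16 germline genes that promoter methylation keeps silent in somatic cells, 6 had 0 reads in both libraries and 3 passed the minimum. *Tuba3a* had 0 and 23 reads and *Sycp3*, which overlaps the protein-coding *Chpt1*, 49 and 13 reads. Over the list the sums were 100 and 74 reads, a ratio of 0.835 whose interval, 0.610 to 1.14, held 1. Of 19 imprinted genes measured, 11 passed the minimum, of which 6 were called higher and 1, *Plagl1* with 104 and 36 reads, called lower, but not with scaling to *Gapdh*. The highest ratios were those of *Igf2* with 1 and 16 reads, *Meg3* with 16 and 70 reads and *H19* with 4 and 17 reads, all with few reads, where higher values were common. *Zrsr1*, with 172 and 409 reads and a log2 ratio of 1.42, was called higher at a larger count, and it overlaps the protein-coding *Commd1*, to which some of those reads may belong. With quantile normalization 3 imprinted genes were called higher. *Igf2* overlaps a protein-coding gene and *Meg3* and *H19* overlap small RNA genes. DNA methylation and histone marks were not measured in these libraries.

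None of the 10 genes overlaps another protein-coding gene in GENCODE M21. *Uhrf1* and *Ezh1* overlap no other annotated gene, the span of *Ezh2* holds a processed pseudogene, and the antisense or intronic transcripts that overlap the others and have rows in the tables had few reads, at most 8 (*E230029C05Rik* at *Eed*, with 8 and 1).

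**Figure D5:**
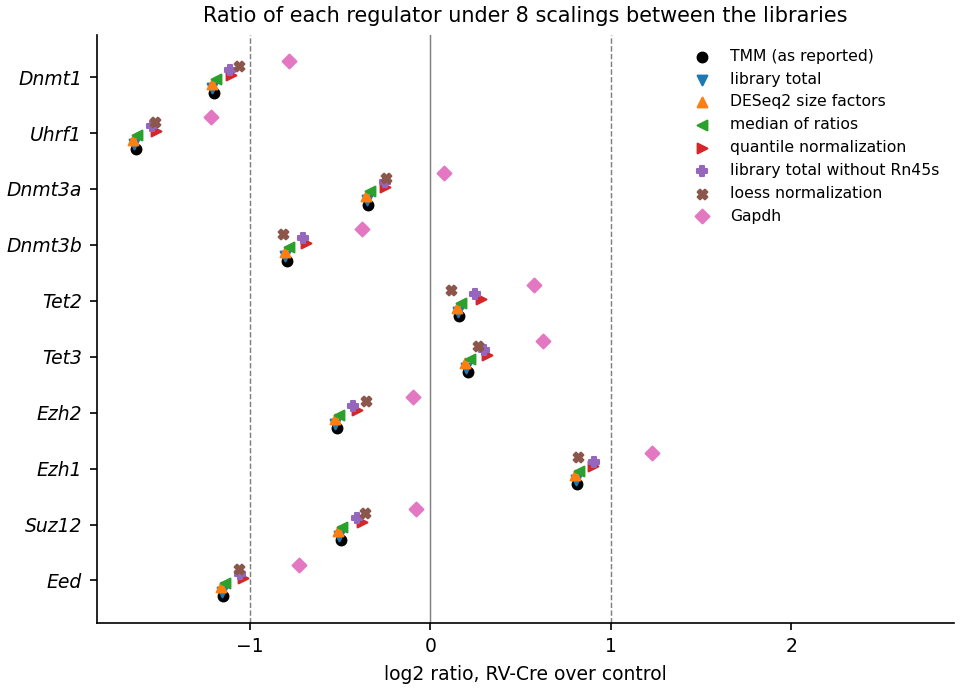
log2 ratio (RV-Cre over control) of each regulator under 8 ways of scaling between the libraries, with dashed lines at 2-fold and a solid line at 0. *Dnmt1*, *Uhrf1* and *Eed* lie beyond 2-fold under all but *Gapdh* scaling, under which only *Uhrf1* does, *Ezh1* reaches 1.23 and *Dnmt3a* moves across 0 to 0.07.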

How the data were processed

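Per the labels, the libraries were made from 500 ng of total RNA with a Lexogen QuantSeq kit, which reads the 3′ end of transcripts. The authors deposited raw counts per gene symbol, without normalization. The submitters' processing notes name mm10, bcl2fastq 2.20.0.422, Bowtie2 and bedtools. The annotation, the read filters and the counting rule are not given in the sources used here. Nothing says whether each library pooled several mice or cultures. Cells with Cre but unfloxed *Fak* were not analysed here, so Cre and the loss of *Fak* cannot be told apart.

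Counts were scaled with TMM in edgeR 4.0.16 (R 4.3.3), with size factors of 1.06 and 0.941. Intervals came from scipy 1.17.1. They cover counting error only and treat every read as independent. Reads carry no molecular identifiers, so amplified copies of a molecule would count as separate reads, and the intervals may be too narrow. The code was run on simulated counts that had counting error and no variation between cultures, so that run says nothing of such variation. Loci, promoters and overlaps came from RefSeq GRCm38.p6 and GENCODE M21. The 10 genes, the lists and the settings were chosen with earlier results of these data known. Beyond the 10 genes and *Ptk2*, genes at least 2-fold higher or lower were named by a rule, at most 3 each way per list. *Gadd45g*, *Ogt*, *Cbx2*, *Zrsr1*, *Tet1* and the genes inside 2-fold were named outside this rule, after their values were seen. Some genes that the rule names are not reported here.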

Additional observations from a re-analysis of the deposited data

How the results depend on the processing

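No paired analysis was possible because neither group had a second library. Under scaling by library totals (with or without *Rn45s*), DESeq2 1.42.0, the median of ratios, quantiles or limma 3.58.1 loess, and with pseudocounts of 0.1 and 10, *Dnmt1*, *Uhrf1* and *Eed* stayed at least 2-fold lower and no regulator changed sign. Scaling to *Gapdh*, itself lower with a ratio of 0.748, raises log2 ratios by 0.42. With it *Uhrf1* alone was called lower (1 of the 10) and *Ezh1* alone higher (1 of the 10), the log2 ratio of *Dnmt3a* was 0.0729, and 2960 of all genes were higher and 780 lower. Of the called genes, 79.1% were higher with it, 53.6% with TMM, 40.8% with a log2 minimum of 6 and 40.9% with a minimum of 4 required of both. With a fold threshold of 1.5, 4 regulators were lower and 1 was higher, with 2847 genes higher and 2777 lower in all. With a threshold of 3, 1 regulator was lower, with 1008 and 669 in all. With no minimum the counts over all genes were 3265 and 2441. With a log2 minimum of 6 they were 734 and 1067, and with 4 required of both they were 758 and 1097, beside 1720 and 1491 in the main setting, the regulators being unaffected by these minimums. With a 99% interval the same number of regulators, 9, excluded a ratio of 1. The cause of the shift with *Gapdh* was not tested. Depth limits the genes of few reads, such as *Pcgf1*, *Zfp57*, *Apobec1*, *Tdg* and the silenced genes.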
